A study of Mus musculus with 30 samples.

Results

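The 10 mouse genes described here encode enzymes of mitochondrial fatty acid oxidation: Cpt2, Acadvl, Acadl, Acadm, Acads, Hadha, Hadhb, Etfa, Etfb and Etfdh. They were chosen by name, and every non-control array probe that carries one of these names was used, which gave 12 of 55681 probes and 10 of 34844 gene names on the array. Cpt2 and Etfa have 2 probes each, called here Cpt2 1, Cpt2 2, Etfa 1 and Etfa 2 in order of their mean signal. All 12 probes passed the filter on dim probes, a signal well above background on at least 3 of 30 arrays, which 35905 probes passed. Cpt2 1, Acadvl, Acadm, Hadha, Hadhb, Etfa 1, Etfa 2 and Etfb were well above background on all 30 arrays. Acadl, Acads and Etfdh were so on 29 arrays, and Cpt2 2 on 5.

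The samples were peripheral blood mononuclear cells (PBMC), a Ficoll fraction of blood, of female C57BL/6 mice aged 6 weeks under xylazine and ketamine anaesthesia. Into the tail vein each mouse received 200 µl holding oleic acid (OA, 1.2 µl per g body weight), a long-chain fatty acid that injures the lung by this route, or 200 µl of physiological serum. OA groups held 3, 3, 3, 2, 3 and 3 arrays at 1, 1.5, 3, 4, 18 and 24 h after injection, and serum groups 3, 3, 2, 1, 2 and 2. Since 30 mice are counted in the design and 30 arrays were deposited, an array stands for 1 mouse below. The comparisons ask how transcripts of blood cells in OA mice stood against those of serum mice sampled at the same hour.

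Long-chain fatty acids enter the mitochondrial matrix as carnitine esters, and CPT2 on the inner membrane turns them back into acyl-CoA. Acyl-CoA dehydrogenases then take the first electrons from the chain, with ACADVL, ACADL, ACADM and ACADS preferring very long, long, medium and short chains. HADHA and HADHB are the subunits of the trifunctional protein, which carries out the remaining steps on long chains. The dehydrogenases pass their electrons to the heterodimer of ETFA and ETFB, and ETFDH hands them on to ubiquinone of the respiratory chain. Among blood leukocytes, fatty acid oxidation is known for its use by memory and regulatory T cells and by monocyte-derived cells.

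These 3 stretches of promoter are shown because Etfdh and Cpt2 kept a call at 24 h under each of the 5 scalings run, and because Hadha and Hadhb lie head to head. In RefSeq, on GRCm38.p6, the start sites of Hadha and Hadhb on chromosome 5 are separated by 272 bases, so the windows before both genes overlap. Each sequence below is the 250 bases before the start site, 5′ to 3′ on the gene's strand, credited to RefSeq. Etfdh is chr3:79628768-79629017 on the minus strand, Cpt2 is chr4:107923590-107923839 on the minus strand and Hadhb is chr5:30155003-30155252 on the plus strand. Capitals mark matches on either strand to 6 motifs that were searched by their letters.
Etfdh: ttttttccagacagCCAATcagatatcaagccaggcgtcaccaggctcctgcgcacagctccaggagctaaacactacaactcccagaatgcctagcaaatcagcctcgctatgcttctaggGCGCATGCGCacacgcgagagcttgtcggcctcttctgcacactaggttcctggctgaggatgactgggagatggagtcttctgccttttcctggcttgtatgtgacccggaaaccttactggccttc
Cpt2: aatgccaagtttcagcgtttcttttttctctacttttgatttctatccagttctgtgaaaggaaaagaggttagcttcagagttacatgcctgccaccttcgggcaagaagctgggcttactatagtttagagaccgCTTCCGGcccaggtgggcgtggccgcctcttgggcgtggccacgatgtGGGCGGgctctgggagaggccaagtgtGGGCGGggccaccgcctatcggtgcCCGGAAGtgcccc
Hadhb: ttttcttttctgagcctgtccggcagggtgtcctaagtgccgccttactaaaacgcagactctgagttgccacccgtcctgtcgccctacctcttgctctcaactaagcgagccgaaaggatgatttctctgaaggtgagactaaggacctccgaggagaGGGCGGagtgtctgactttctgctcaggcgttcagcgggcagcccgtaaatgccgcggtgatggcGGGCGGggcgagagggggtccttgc
The motifs were GCGC and TGCGC with 1 base between them (NRF1), CCGGAAG (ETS factors), TNAAGGTCA (estrogen-related receptors), 2 copies of AGGTCA with 1 base between them (a direct repeat bound by PPAR dimers), CCAAT and GGGCGG. All 10 genes had a window. The NRF1 letters were found before Etfdh and Etfb, 2 of 10 genes, and in 3.74% of 32851 windows of the same length. The ETS letters were found before Cpt2 alone among the 10 genes, and in 6.91% of windows. CCAAT was found before Etfa, Etfb and Etfdh (33.8% of windows), and GGGCGG before Cpt2, Acadl, Acads, Hadha and Hadhb (32.7%). The Hadha match at −188 and the Hadhb match at −90 from the start site are the same genomic bases. They lie in the 228 bases that both windows share. Neither the receptor letters (1.14%) nor the direct repeat (0.0335%) was found in these 10 windows. No marked matches of different motifs overlap in the sequences shown. These are matches of letters and not measured sites.

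The probes of Etfa are shown because these 2 probes of 1 gene gave unlike values. They are 60 bases long, as the array files give them, with mm9 coordinates, both on the minus strand and with no part marked. Etfa 1 (chr9:55309428-55309487) begins at base 1076 of the transcript and Etfa 2 (chr9:55343560-55343619) at base 371. Etfa 1 thus lies nearer the 3′ end.
Etfa 1: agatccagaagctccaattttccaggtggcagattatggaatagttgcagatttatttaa
Etfa 2: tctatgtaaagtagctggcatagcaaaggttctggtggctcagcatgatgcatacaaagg

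Values below are log2 levels of the processed signal relative to each array's 75th percentile, so a level of 0 is that percentile and a step of 1 is a doubling. A level can be compared between arrays for 1 probe, not between probes. The 75th percentile itself ranged from 40.0 to 150 signal units, and the share of probes well above background from 34.6% to 64.8%. The median correlation to the other arrays was below 0.9 for 3 arrays, which stood apart. It was 0.835 for OA 4 h replicate 2, 0.797 for serum 24 h replicate 1 and 0.885 for serum 1.5 h replicate 3. They also had high signal from probes for long intergenic RNA, measured relative to probes detected on all arrays, at −2.06, −1.86 and −3.05, against −4.60 to −3.16 on the other 27 arrays. Arrays came from 5 slides, and slide 5 held 5 OA arrays that were also the only ones of a second scan day. Both serum arrays of 24 h lay on slide 1, and the OA arrays of 24 h on slides 2, 3 and 5, so there is no value within a slide at 24 h. The markers of T, B and NK cells and of monocytes were detected, with a median of 30 arrays per list, but so were those of neutrophils, platelets and erythroid cells, which a mononuclear fraction should hold few of. In such bulk samples, fewer cells of a type and less RNA per cell cannot be told apart.

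**Figure D1:**
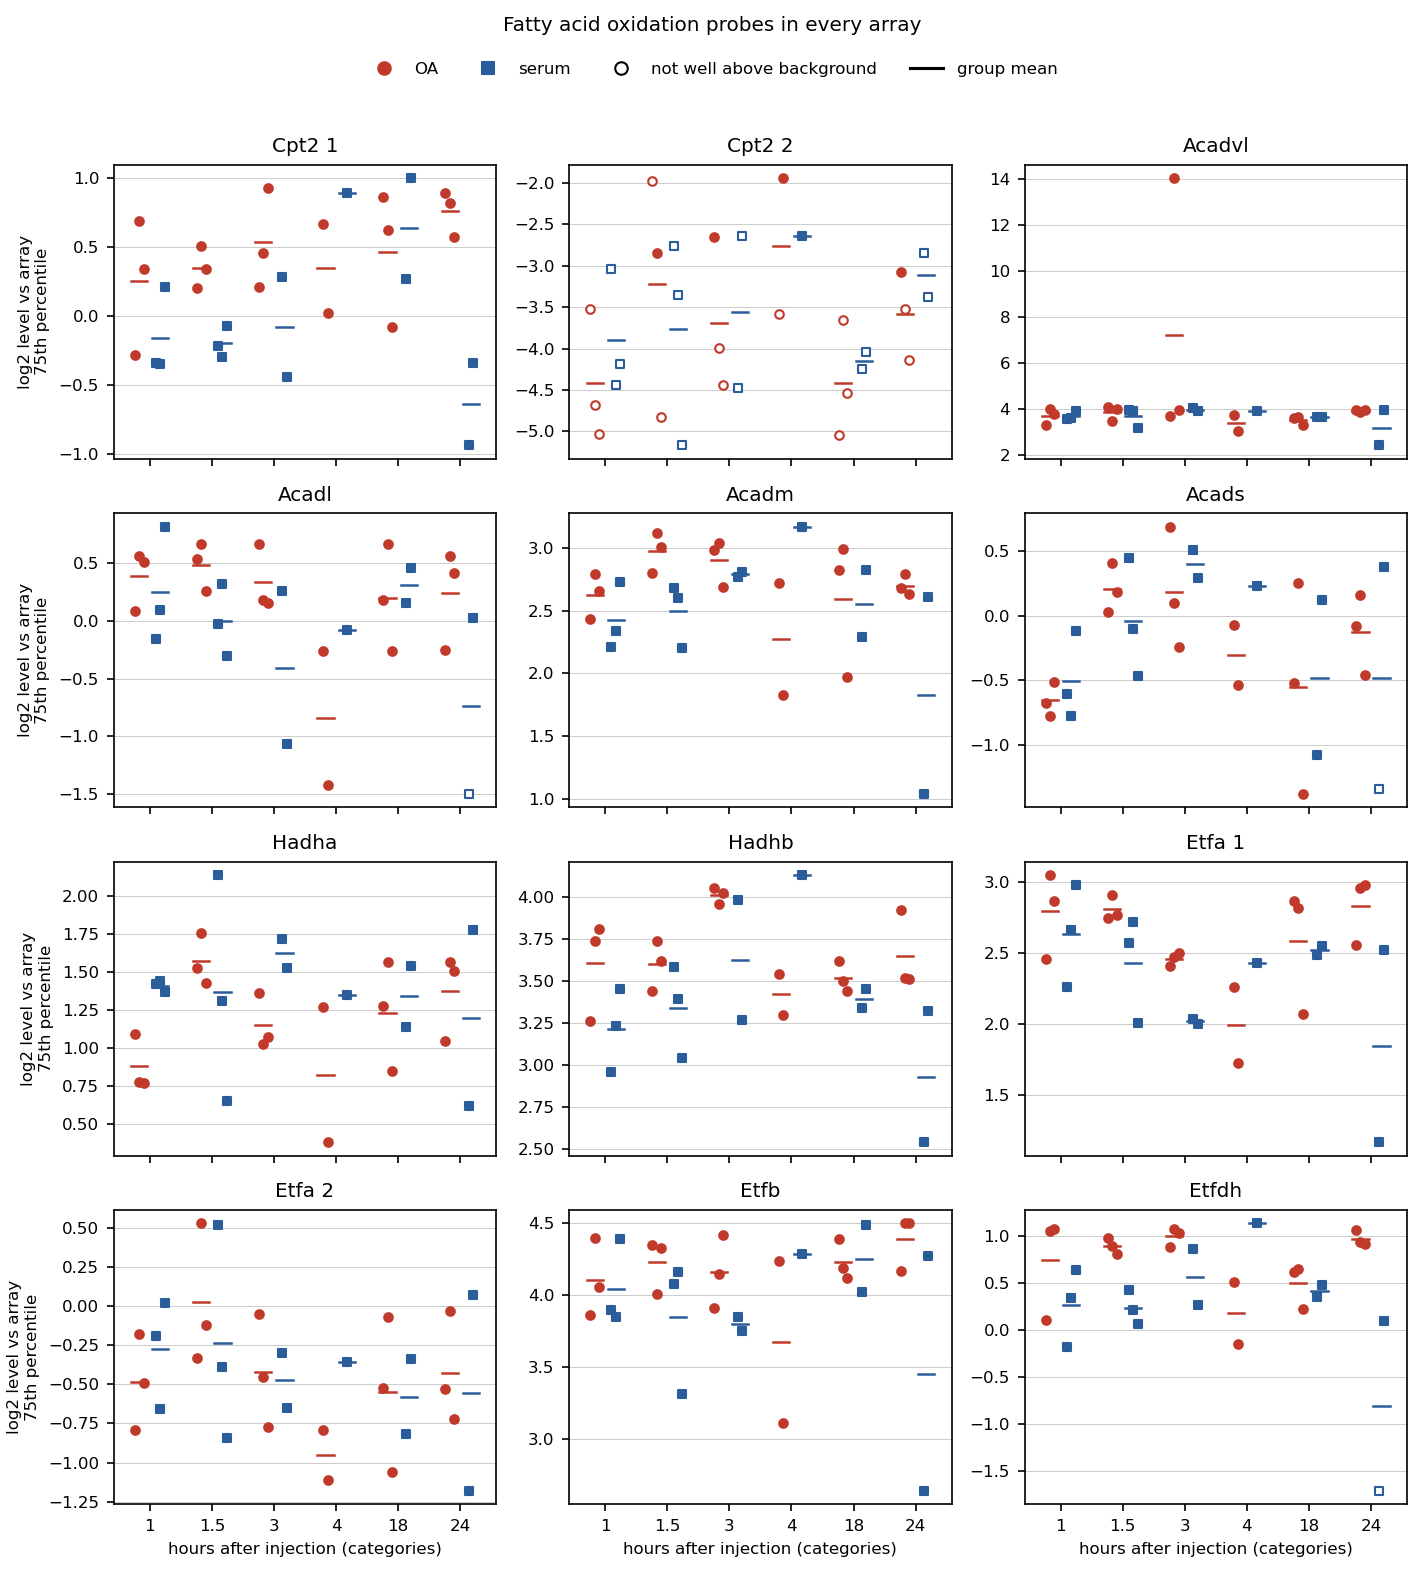
Log2 level of each of the 12 probes on each of 30 arrays (y axis, relative to the array's 75th percentile) by hours after injection (x axis, categories), with OA as red circles left of serum as blue squares. Bars are group means and open symbols are spots not well above background. In 9 of the 12 panels the lowest point is serum 24 h replicate 1, and in the Acadvl panel 1 OA array at 3 h lies at 14.06.

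At 24 h, 3 of the 12 probes were called higher in OA than in serum mice, those of Etfdh, Cpt2 (Cpt2 1) and Etfa (Etfa 1). None was called lower. In limma's test 28.4% of all probes passed the same threshold (adjusted p under 0.05) at 24 h, 11.4% as higher and 17.0% as lower. Among the 14595 probes well above background on all arrays, 19.3% were called higher and 1.86% lower. The 3 of 12 is therefore a share near the background of the comparison. The median difference of the 12 probes was 0.81, against −0.15 over all probes, and 11 of the 12 differences were above 0. At an unadjusted p under 0.05, 6 of the 12 probes and 44.7% of all probes passed. Scaled to the median of probes detected on all arrays, each of the 12 differences was lower, and Acads, Hadha and Etfa 2 fell below 0. The 12 probes share the same arrays, so counts by sign here and below are not separate signs of an effect.

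Etfdh, the ubiquinone oxidoreductase that drains the electron transfer flavoprotein, showed the largest difference of the 12 probes at 24 h with all arrays and this scaling, though not with normexp background (Etfb, 1.14, against 0.98 for Etfdh) or without serum 24 h replicate 1. Its levels were 1.06, 0.93 and 0.91 in OA mice, against −1.71 and 0.09 in serum mice. The 3 OA arrays lay close together, above both serum arrays, which were far from each other, and the spot of the lower serum array was not well above background. Etfdh differed by 1.78 (SE 0.41), 3.43-fold, with an adjusted p of 0.0157.

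Cpt2 1, the bright probe of the matrix carnitine palmitoyltransferase, had levels of 0.89, 0.82 and 0.57 in OA mice, against −0.94 and −0.34 in serum mice at 24 h. The groups did not overlap, and both serum arrays were below 0. Cpt2 1 differed by 1.40 (SE 0.38), 2.64-fold, with an adjusted p of 0.0201. The dim probe, Cpt2 2, was well above background on 1 of 3 OA arrays and on neither serum array, with levels of −3.08, −3.52 and −4.14 in OA mice against −2.85 and −3.38 in serum mice. It gives only a bound there and no fold.

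Etfa 1 stood at 2.56, 2.96 and 2.98 in OA mice, against 1.17 and 2.52 in serum mice at 24 h. The lowest OA array and the higher serum array nearly met. Etfa 1 differed by 0.98 (SE 0.37), 1.97-fold, with an adjusted p of 0.0495. Other scalings ended that call: Etfa 1 differed by 0.47 (adjusted p = 0.136) scaled to always-detected probes, by 0.50 (adjusted p = 0.152) with quantile normalization and by 0.40 (adjusted p = 0.179) in the authors' deposited table. Etfa 2, which lies further upstream in the same transcript, stood at −0.53, −0.03 and −0.72 in OA mice, against −1.18 and 0.07 in serum mice. There the groups overlapped, the difference was 0.13 (SE 0.44) and the adjusted p was 0.829, so the 2 probes of Etfa disagree on size. Etfb, the partner subunit, stood at 4.17, 4.50 and 4.50 in OA mice, against 2.64 and 4.27 in serum mice, a difference of 0.93 (SE 0.41, adjusted p = 0.0833).

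None of the dehydrogenases passed the threshold at 24 h. Acadm, the medium-chain enzyme, stood at 2.68, 2.79 and 2.63 in OA mice, against 1.04 and 2.61 in serum mice, a difference of 0.88 (SE 0.39, adjusted p = 0.0902). Acadl, the long-chain enzyme, stood at −0.25, 0.56 and 0.42 in OA mice, against −1.50 and 0.03 in serum mice, a difference of 0.98 (SE 0.47, adjusted p = 0.113). Acadvl and Acads differed by 0.74 (SE 1.68) and 0.35 (SE 0.49), with overlapping groups. The SE of Acadvl holds the spread from a bright spot at 3 h, described below. With background-marked spots left out, that SE was 0.39 and the difference was again 0.74 (adjusted p = 0.145). In all 4 the low value belonged to the same serum array, and it was not well above background there for Acadl and Acads.

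The subunits of the trifunctional protein did not pass either. Hadhb, which holds the thiolase, stood at 3.92, 3.52 and 3.51 in OA mice, against 2.54 and 3.32 in serum mice, a difference of 0.72 (SE 0.30, adjusted p = 0.0742). Hadha, which holds the hydratase and the hydroxyacyl-CoA dehydrogenase, stood at 1.05, 1.57 and 1.51 in OA mice, against 0.62 and 1.78 in serum mice, a difference of 0.17 (SE 0.40). The groups of Hadhb were apart and those of Hadha overlapped, with 1 serum array above and 1 below every OA array. Over all 12 probes at 24 h, every OA array exceeded both serum arrays for 5 probes, a pattern that 23.6% of all probes showed, and 37.8% of those well above background on all arrays.

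The calls at 24 h rested on serum 24 h replicate 1, which gave the lowest of all 30 levels for 9 of the 12 probes. Without that array no probe of the 12 was called, and the share of all probes called was 0.153%. Etfdh then differed by 0.88 (SE 0.40, adjusted p = 0.499), Cpt2 1 by 1.1 (SE 0.46, adjusted p = 0.475) and Etfa 1 by 0.31 (SE 0.39, adjusted p = 0.793). Acads, Hadha and Etfa 2 then turned to −0.51, −0.41 and −0.49. Without the other serum array instead, 7 of the 12 probes and 48.6% of all probes were called, with Etfdh at 2.68 and Etfb at 1.75. Without OA 24 h replicate 1, too, none of the 12 was called, with Etfdh at 1.73 and Cpt2 1 at 1.34. The share of all probes called in that fit is not given here. Etfa 1 kept its call in 8 of the 30 fits that leave out 1 array. With slide as an additive term over all times no member was called, while Etfdh differed by 1.45 (SE 0.50, adjusted p = 0.141), Cpt2 1 by 1.04 (SE 0.40, adjusted p = 0.167) and Etfa 1 by 0.79 (SE 0.45, adjusted p = 0.292).

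**Figure D2:**
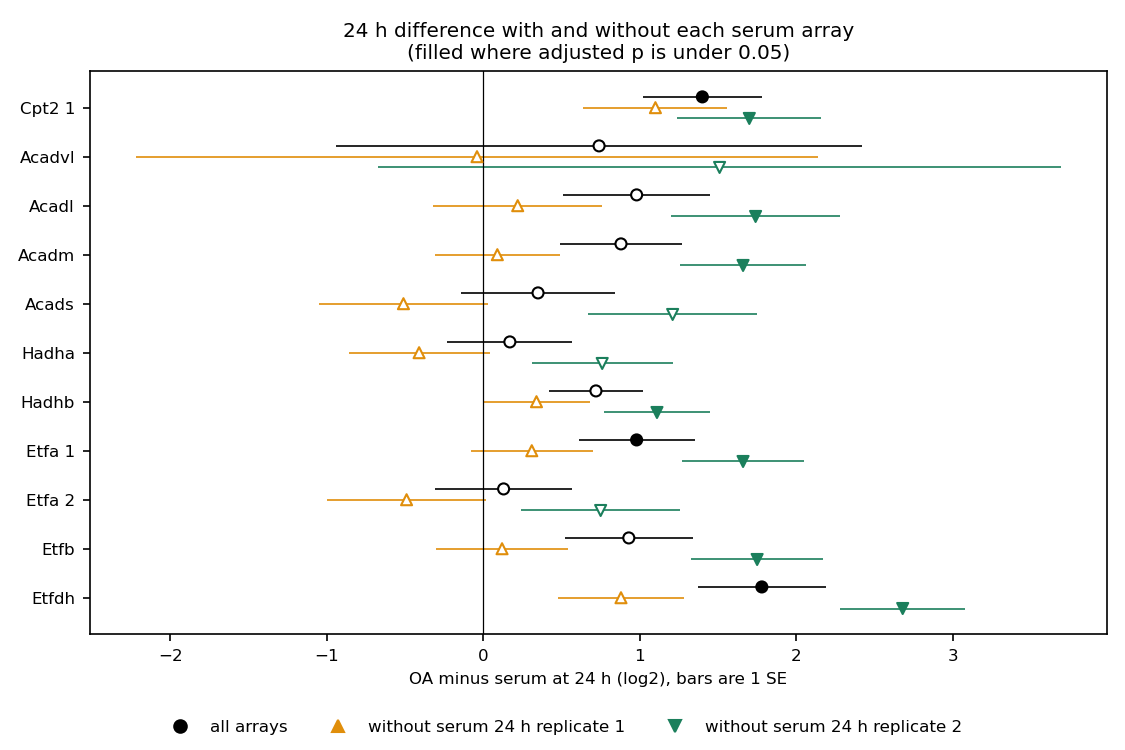
OA minus serum at 24 h on the log2 scale (x axis, bars are 1 SE) for 11 probes (y axis), from all arrays and without each of the serum arrays of 24 h. Symbols are filled where the adjusted p is under 0.05. Without replicate 1 no symbol is filled and Acads, Hadha and Etfa 2 lie below 0, while without replicate 2 the differences are larger and 7 are filled.

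Serum 24 h replicate 1 also differed in its cell markers. Its lists averaged 3.77 for T cells (5 of 5 genes detected), 3.30 for B cells (5 of 5), 1.32 for monocytes (5 of 6) and 5.64 for erythroid cells (5 of 5). OA mice of 24 h ranged from 4.86 to 5.10, from 4.87 to 5.24, from 3.53 to 4.02 and from 2.49 to 4.33 on these lists, and serum 24 h replicate 2 stood at 5.26, 4.59, 2.80 and 3.12. The muscle list stood at −0.10 (4 of 5 genes passed the filter, Ckm did not) and the hepatocyte list at −0.80 (2 of 4, with Alb and Apoa1 not passing). OA mice of 24 h had −4.69 to −3.35 and −4.37 to −3.15 on these 2 lists, and serum 24 h replicate 2 had −2.16 and −2.40. Both lists are dim, with medians of 10 and 11.5 arrays well above background. The adipocyte list, dim as well (median of 5 arrays), stood at −1.52 on serum 24 h replicate 1, against −4.81 to −3.62 in OA mice of 24 h. The neutrophil list stood at 5.03 there, within the 4.42 to 6.14 of OA mice of 24 h. The NK list (4 of 4 genes detected) stood at 2.04, against 3.01 to 4.05 in OA mice of 24 h. All lists are relative to the 75th percentile. The median of always-detected probes lay 1.05 above it on serum 24 h replicate 1, against 1.82 to 1.96 on the other arrays of 24 h. This by itself lowers bright lists on that array. The part of these values in the 24 h differences was not tested. With the intergenic signal, which is highest on this same array, as a covariate, the median difference of the 12 probes at 24 h was −0.04 and that of Etfdh 0.64.

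**Figure D3:**
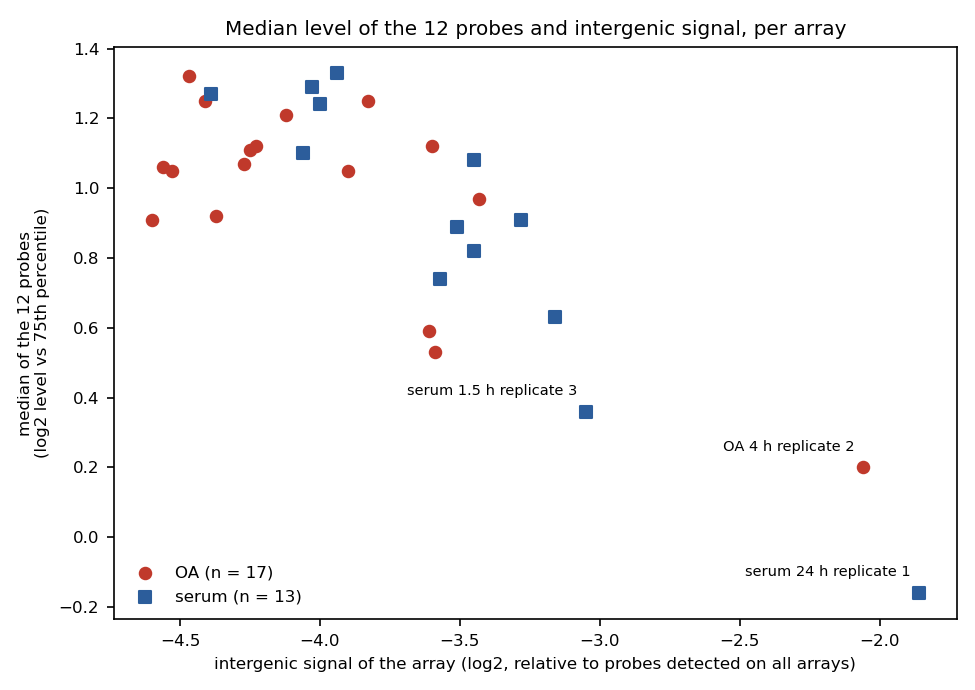
Median log2 level of the 12 probes (y axis) against the intergenic signal of the array (x axis, log2, relative to probes detected on all arrays), 1 point per array, OA as red circles and serum as blue squares. The arrays with the lowest medians, OA 4 h replicate 2 (0.20), serum 24 h replicate 1 (−0.16) and serum 1.5 h replicate 3 (0.36), are those with the highest intergenic signal. The axes have different references, the 75th percentile and the median of probes detected on all arrays. The distance between these references was 1.11, 1.05 and 1.49 on these arrays, against 1.67 to 2.04 on all others. It enters both axes with opposite sign, so part of the relation is built in.

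At 1, 1.5, 3, 4 and 18 h no probe of the 12 passed limma's test, by adjusted p or by an unadjusted p under 0.05, and the share of all probes called was 0.00% at each of these times. At an unadjusted p under 0.05, the share of all probes was 5.49% at 1 h, then 9.70%, 7.76%, 10.3% and 1.15% at the later times. The median difference of the 12 probes over these times was 0.10, 0.38, 0.37, −0.57 and −0.05. Over all probes it was −0.12, 0.04, 0.09, −0.05 and −0.07. The members thus stood above the middle of all probes at 1, 1.5 and 3 h and below it at 4 h, with intervals of single probes that crossed 0. Most members were well above background on all arrays, unlike most of all probes. Scaled to the median of probes detected on all arrays, the median of the members lay nearer to 0 at 1.5 and 4 h, as given below.

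**Figure D4:**
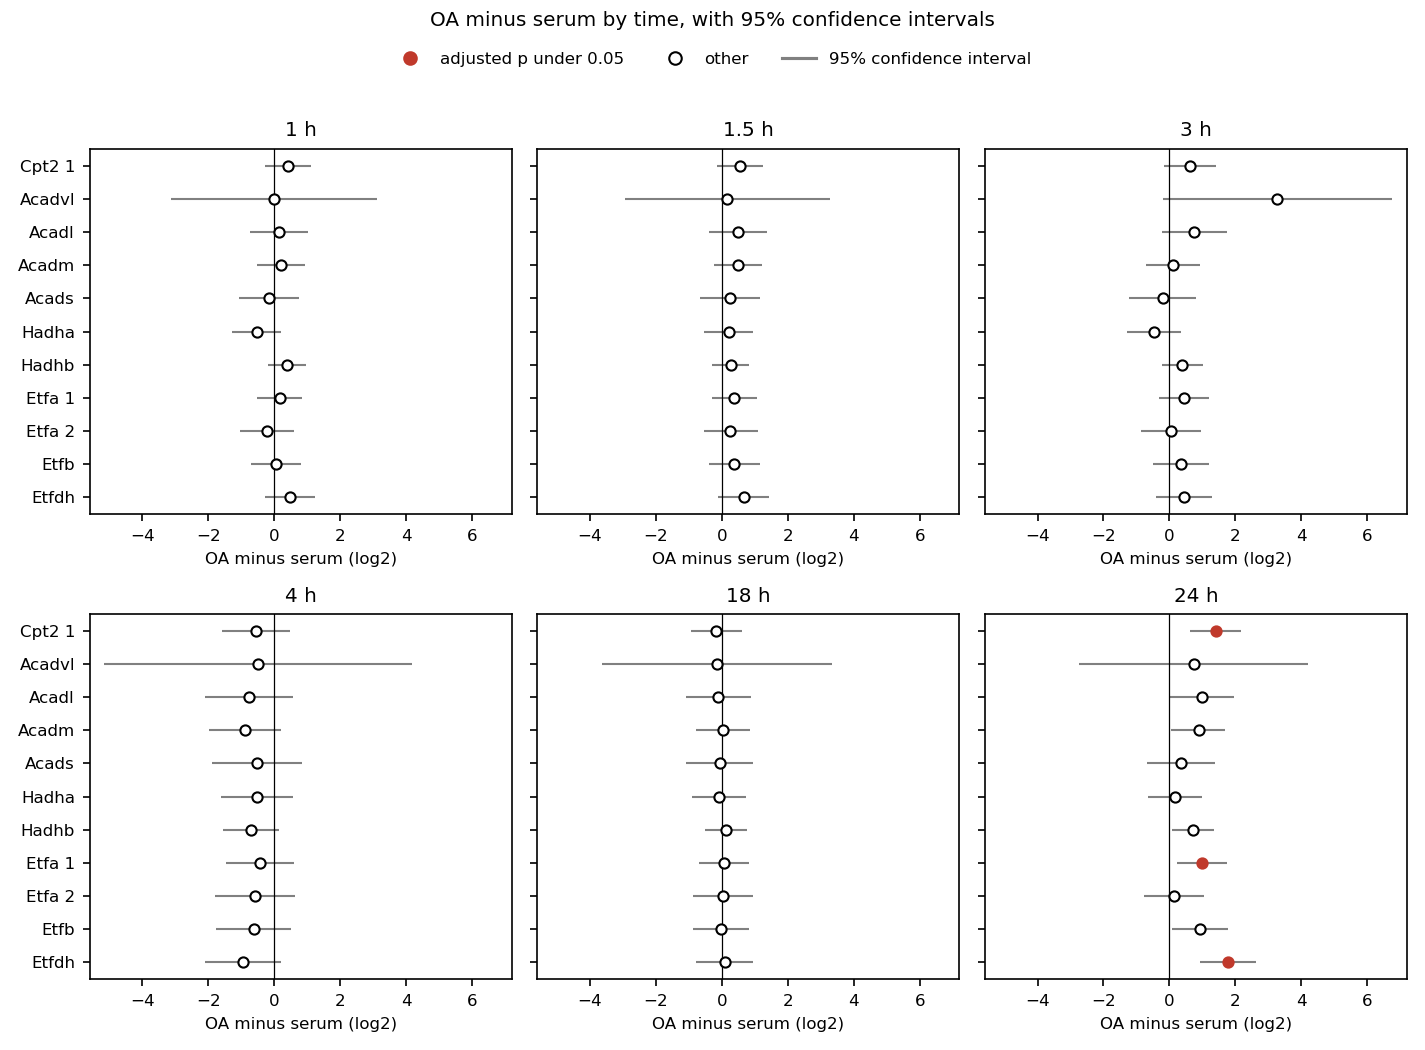
OA minus serum on the log2 scale (x axis) with 95% confidence intervals for 11 probes (y axis) at each time. Filled red points have an adjusted p under 0.05 and occur at 24 h only, for Cpt2 1, Etfa 1 and Etfdh. All points lie above 0 at 1.5 h and below 0 at 4 h, and all intervals outside 24 h include 0, the wide ones belonging to Acadvl.

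At 1.5 h all 12 differences were above 0, and for 4 probes every OA array exceeded every serum array, which 15.6% of all probes did, and 26.4% of those well above background on all arrays. Etfdh stood at 0.97, 0.89 and 0.80 in OA mice, against 0.42, 0.21 and 0.06 in serum mice, a difference of 0.66 (SE 0.37, adjusted p = 0.539). Cpt2 1 stood at 0.20, 0.51 and 0.34 in OA mice, against −0.22, −0.30 and −0.07 in serum mice, a difference of 0.54 (SE 0.34, adjusted p = 0.556). Both genes had tight groups without overlap, yet with the spread pooled over the groups the 95% intervals, −0.11 to 1.42 and −0.15 to 1.24, included 0. Acadm and Etfa 1 were the other members apart, with differences of 0.48 and 0.38. Within slide 3 the median difference of the 12 probes was 0.48 and within slide 4 it was 0.73, from 1 array of each treatment, the serum array on slide 4 being one of those that stood apart. Without that array Etfdh differed by 0.57 and Cpt2 1 by 0.61 at 1.5 h, and the median of the 12 probes was 0.11. Marker lists moved at 1.5 h too: platelets (5 of 5 genes detected) ranged from 6.01 to 7.80 in OA mice and from 4.17 to 5.48 in serum mice, monocytes (5 of 6) from 4.05 to 4.39 and from 3.52 to 3.62, B cells (5 of 5) from 4.87 to 5.34 and from 4.17 to 4.76, and erythroid cells (5 of 5) from 1.66 to 2.30 and from 2.93 to 3.52. Their part in the member values was not tested. Scaled to the median of probes detected on all arrays, the median difference was 0.16 and 10 of 12 were above 0.

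At 3 h Etfa 1, Etfb and Etfdh were higher on every OA array than on both serum arrays, which 15.9% of all probes were, and 23.0% of those well above background on all arrays, near the 3 of 12. Etfa 1 stood at 2.41, 2.47 and 2.50 in OA mice, against 2.04 and 2.00 in serum mice, a difference of 0.44 (SE 0.37, adjusted p = 0.765). Etfb stood at 3.91, 4.15 and 4.42 in OA mice, against 3.85 and 3.75 in serum mice, a difference of 0.36 (SE 0.41). Etfdh stood at 0.88, 1.07 and 1.03 in OA mice, against 0.86 and 0.26 in serum mice, a difference of 0.43 (SE 0.41). The gap between the groups was largest for Etfa 1, and small for Etfb and Etfdh. Etfa 2 differed by 0.05 at this time, with its groups overlapping. The platelet list (5 of 5 genes) ranged from 7.26 to 7.80 in OA mice of 3 h and from 6.29 to 6.32 in serum mice, and the monocyte list (5 of 6) from 3.66 to 4.32 and from 3.04 to 3.26. The T cell list (5 of 5) went the other way, from 4.85 to 5.00 in OA mice and from 5.11 to 5.17 in serum mice. Their part was not tested.

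At 4 h all 12 differences were below 0, and 11 probes lay lower on both OA arrays than on the single serum array, a pattern that 37.1% of all probes showed, and 58.8% of those well above background on all arrays. Acadm stood at 2.72 and 1.83 in OA mice, against 3.17 in the serum mouse, and Etfdh at 0.51 and −0.15, against 1.13. Hadhb stood at 3.54 and 3.30, against 4.13. The largest differences were −0.95 (SE 0.55) for Etfdh, −0.89 (SE 0.53) for Acadm and −0.76 (SE 0.64) for Acadl. The lower OA array for these 4 genes was replicate 2, which stood apart. Without it Etfdh differed by −0.62, Acadm by −0.45, Hadhb by −0.58 and Acadl by −0.18, and Etfb and Hadha by −0.06 and −0.08. Scaled to the median of probes detected on all arrays, the median of the 12 differences was −0.06 at 4 h, and that over all probes was 0.45. Marker lists moved at 4 h as well, with monocytes (5 of 6 genes) at 1.77 and 3.24 in OA mice against 4.32 in the serum mouse, neutrophils (6 of 6) at 4.82 and 4.91 against 6.18, and erythroid cells (5 of 5) at 3.67 and 4.36 against 2.35. Their part was not tested.

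At 18 h the 12 differences were spread around 0, from −0.27 for the dim Cpt2 2 to 0.12 for Hadhb. Etfdh stood at 0.61, 0.65 and 0.22 in OA mice, against 0.35 and 0.47 in serum mice, and Cpt2 1 at 0.86, 0.62 and −0.08, against 0.27 and 1.00. For both genes the groups overlapped, with 95% intervals of −0.77 to 0.94 and −0.95 to 0.61. Acadvl lay lower on every OA array, at 3.63, 3.66 and 3.32 in OA mice against 3.68 and 3.68 in serum mice, a pattern that 4.17% of all probes showed, and 1.76% of those well above background on all arrays.

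Hadha and Hadhb, which share the space between their start sites, gave differences of opposite sign at 1 and 3 h. At 1 h Hadha stood at 1.09, 0.78 and 0.77 in OA mice, against 1.42, 1.44 and 1.37 in serum mice, a difference of −0.53 (SE 0.35, adjusted p = 0.810). It was the 1 member whose OA arrays all lay below the serum arrays at 1 h, as 9.37% of all probes did, and 5.58% of those well above background on all arrays. Hadhb stood at 3.26, 3.74 and 3.81 in OA mice, against 2.96, 3.23 and 3.45 in serum mice, a difference of 0.39 (SE 0.27, adjusted p = 0.810). At 3 h Hadha stood at 1.36, 1.03 and 1.07 in OA mice, against 1.72 and 1.53 in serum mice, a difference of −0.47 (SE 0.40, adjusted p = 0.767). It was again the 1 member with every OA array below the serum arrays, as 13.4% of all probes were, and 14.7% of those well above background on all arrays. Hadhb then stood at 4.05, 3.96 and 4.02 in OA mice, against 3.98 and 3.27 in serum mice, a difference of 0.39 (SE 0.30). The signs of both genes at 1 and 3 h were the same under the 5 scalings run, though neither difference passed the test and the contrast between the genes was not tested. Within slide 1 at 1 h, with 1 OA and 2 serum arrays, Hadha differed by −0.31 and Hadhb by 0.05. Hadhb had the smallest residual SD of the 12 probes, 0.259, which only 0.911% of tested probes undercut, against a median of 0.630 over all probes.

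A single spot set the values of Acadvl at 3 h and, through the pooled spread, widened its SE at every time. On OA 3 h replicate 2 the probe stood at 14.06, the second brightest non-control spot of that array, while the other 29 arrays lay between 2.43 and 4.09. The other OA arrays of 3 h stood at 3.71 and 3.98 and the serum arrays at 4.06 and 3.91. The spot itself was neither saturated nor marked as an outlier, but its local background carried an outlier mark. The difference at 3 h was 3.27 (SE 1.68, adjusted p = 0.658) with the spot, and −0.14 (SE 0.42) with background-marked spots left out. Without that array the difference was −0.14 as well, and the mean difference over the 6 times was 0.02 (SE 0.17), against 0.59 (SE 0.71) with it.

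Over the mean of the 6 times, no member was called (0.00279% of all probes were), while 2 of 12 and 14.0% of all probes had an unadjusted p under 0.05. These were Etfdh, with a mean difference of 0.41 (SE 0.17, adjusted p = 0.331), and Cpt2 1, with 0.37 (SE 0.16, adjusted p = 0.332). The largest mean difference downwards was that of Hadha, −0.21 (SE 0.17). The mean shares the 24 h arrays and is not a separate sign of the 24 h result. Without serum 24 h replicate 1 it was 0.26 (adjusted p = 0.568) for Etfdh and 0.32 (adjusted p = 0.550) for Cpt2 1.

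No member passed the tests of time within a treatment. In OA mice the levels at 18 and 24 h minus those at 1 to 4 h had a median of 0.00 over the 12 probes, with 0 called (0.167% of all probes) and 0 at an unadjusted p under 0.05 (15.6%). In serum mice the median was −0.21, against 0.02 over all probes, and all 12 values were below 0. Of the 12, 0 were called (0.123% of all probes). Etfdh, at −0.75 (SE 0.28, adjusted p = 0.348), was the 1 member at an unadjusted p under 0.05 (10.3% of all probes). Without serum 24 h replicate 1 the serum median was 0.02, with Etfdh at −0.29, Hadhb at −0.22, Acadl at 0.23 and Etfb at 0.27. The OA effect at 18 and 24 h minus that at 1 to 4 h was 0.78 (SE 0.36, adjusted p = 0.324) for Etfdh. No member was called in that contrast (0.00% of all probes) and 1 had an unadjusted p under 0.05, as 14.8% of all probes did. Without serum 24 h replicate 1 this contrast was 0.33 (adjusted p = 0.904) for Etfdh. The F tests called no member for an OA effect that differs between times (0.00557% of all probes), for times in OA mice (0.184%) or for times in serum mice (0.0613%). At an unadjusted p under 0.05 they gave 2, 0 and 2 members, with Cpt2 1 and Etfdh the 2 in both cases, and 16.7%, 17.8% and 13.3% of all probes.

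By group, Etfdh was highest in the serum mouse of 4 h (1.13) and in OA mice of 3 h (mean 0.99 ± 0.10 SD, n = 3), 24 h (0.97 ± 0.08, n = 3) and 1.5 h (0.89 ± 0.09, n = 3), and these 3 OA groups differed by no more than their SDs. It was lowest in serum mice of 24 h (−0.81 ± 1.27, n = 2), 4 h OA mice (0.18 ± 0.47, n = 2) and 1.5 h serum mice (0.23 ± 0.18, n = 3). Cpt2 1 was highest in the serum mouse of 4 h (0.89), in OA mice of 24 h (0.76 ± 0.17, n = 3) and in serum mice of 18 h (0.64 ± 0.52, n = 2). It was lowest in serum mice of 24 h (−0.64 ± 0.42, n = 2), 1.5 h (−0.19 ± 0.12, n = 3) and 1 h (−0.16 ± 0.32, n = 3). Most neighbours in both orders differed by less than the larger of their SDs. The exception among those named was Cpt2 1 in serum mice of 24 h, slightly further than that below serum mice of 1.5 h, and the single array of 4 h has no SD.

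The levels of Etfa 1 and Etfb, the subunits of 1 flavoprotein, were the most alike of any 2 members over the 30 arrays, with a root mean square difference of 0.236 after each gene's mean was removed. Acadm and Hadhb followed at 0.279, and Acadm and Etfdh at 0.291. This order leaves Acadvl last, since its bright spot at 3 h raises every pair with that gene. Without OA 3 h replicate 2, Acadvl and Etfb stood at 0.244 over 29 arrays, near the value of Etfa 1 and Etfb. Of 9324 other gene probes detected on all arrays, those most like Etfb were Mrpl34 (0.141) and Ndufa12 (0.143), a mitochondrial ribosomal protein and a complex I subunit. Those most like Etfa 1 were Spg11 (0.154) and Mtch2 (0.154), and most like Hadhb were Mrps23 (0.193) and Atp6v1d (0.195). Acadm was most like Zfp652 (0.122) and Actr1a (0.125), Etfdh most like Psmc2 (0.171) and Ap4b1 (0.177), and Cpt2 1 most like Elk3 (0.229). Acadl was most like Man2a1 (0.182) and Ppp3ca (0.191), Acads most like Rbfa (0.220) and Parl (0.257), and Hadha most like Rnaseh2a (0.173) and Arhgdia (0.176). For Acadvl the bright spot sets the result, and without that array it was most like Mfge8 (0.124) and Def6 (0.134) over 29 arrays. All these points share the arrays that stood apart, so the values are descriptions of these 30 arrays.

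Other genes of the pathway were read from 8 lists, with the brightest detected probe of each gene. No gene of these lists was called at 1, 1.5, 3, 4 or 18 h. At 24 h, with 28.4% of all probes called, the carnitine shuttle list had 4 genes higher and 1 lower of 9 tested, other matrix enzymes of beta-oxidation 3 higher of 13, and peroxisomal beta-oxidation 5 higher of 12. Uptake and activation had 2 higher and 1 lower of 9, ketone body enzymes 1 higher of 3, other dehydrogenases linked to the flavoprotein 1 lower of 7, regulators and PPAR-responsive genes 2 higher of 12, and general mitochondrial genes 5 higher of 14. The general mitochondrial list had a median of 0.97 at 24 h, as high as the 0.96 of the other matrix enzymes and above the 0.81 of the 12 member probes. Without serum 24 h replicate 1 no gene of any list was called.

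Cpt1a, the outer membrane transferase that makes the carnitine esters, stood at 3.21, 2.90 and 2.50 in OA mice of 24 h, against 0.65 and 2.33 in serum mice. It was higher in OA mice by 1.38 (SE 0.47, adjusted p = 0.0377). Without serum 24 h replicate 1 it differed by 0.54 (adjusted p = 0.722). Plin2, which coats lipid droplets, stood at 2.21, 2.13 and 1.82 in OA mice, against −0.38 and 0.56 in serum mice. It was higher in OA mice by 1.97 (SE 0.51, adjusted p = 0.0189). Without that array it differed by 1.49 (adjusted p = 0.477). Both serum arrays lay below every OA array for both genes.

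Further genes higher at 24 h were Mlycd (1.23) and Acaca (1.04), which break down and make malonyl-CoA, the inhibitor of Cpt1a, and the matrix enzymes Echs1 (1.30), Eci1 (1.21) and Acad9 (1.15). In peroxisomes they included Hsd17b4 (1.52), Abcd3 (1.34), Scp2 (1.15) and Pecr (1.37). Outside these routes they were the ligase Acsl4 (1.59), the fatty acid binding protein Fabp5 (1.72), the ketone body enzyme Bdh1 (1.36) and the receptor Esrra (1.64). General mitochondrial genes called higher were Cs (1.15), Tomm20 (1.27), Hspd1 (1.08), Sdhb (1.29) and Cycs (1.53). All these had adjusted p values of 0.0175 to 0.0445, and their differences without serum 24 h replicate 1 ran from 0.25 for Pecr to 1.32 for Fabp5. The carnitine carrier Slc22a5 was called higher as well (adjusted p = 0.0364), at −0.83, −1.01 and −1.25 in OA mice. It was not well above background in serum mice, at −3.47 and −1.51, so it has no fold. Of the 3 genes called lower, Cpt1c and Acad8 were well above background on 1 of 3 OA arrays and on both serum arrays. Their differences, −3.12 and −3.18, include OA spots that were not well above background, so their sizes are uncertain. For Acsl6 no array of 24 h gave a signal well above background, so it has no fold.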

How the data were processed

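RNA of PBMC (200 ng) was labelled with Cy3 and hybridised in 1 colour, per the labels' protocols. The deposited intensity values are processed signals of Agilent Feature Extraction 10.5.1.1, which, per the file headers, subtracts the background on each array. The authors' deposited table, log2 values when set against the scanner signals, served as an alternative only. Its scaling and its centring stay unknown, since no label or header used here gives them. Its columns had medians of 5.35 to 5.36, and each of the 30 tracked the array of its name best. Probe coordinates are mm9, as in the files.

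Control spots and spots with an outlier mark (91 to 1408 per array) were left out, and 0 spots were saturated. Log2 processed signals minus each array's 75th percentile were averaged per probe. Probes well above background on at least 3 arrays (35905) entered a limma 3.58.1 fit (R 4.3.3) with 12 groups of treatment and time, 18 residual degrees of freedom, and two-sided tests adjusted by Benjamini-Hochberg over all probes, with a threshold of 0.05. For the lone serum array of 4 h the fit assumes the spread of the remaining groups. The fit was tested on simulated data. The number of arrays limits the precision. Nothing says that arrays of a group shared a cage or a day, and p-values measure the spread between these arrays.

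Members and lists were chosen with earlier results of these data known. All member probes were described. Other pathway genes were named where their brightest probe was called in any comparison, and the 2 genes most like each member by root mean square difference of centred levels; some genes and sequences these rules name are not reported here. Alternatives were normexp correction (offset 50), other scalings, other filters, slide, replicate number and intergenic signal as terms, and each array left out in turn. After seeing the data, 2 more were added: spots with a background outlier mark left out, and the 5 arrays of slide 5 left out.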

Additional observations from a re-analysis of the deposited data

How the results depend on the processing

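The count of members called at 24 h, 3 of 12, was 6 with normexp background, 0 with slide as a fixed block, 0 with the intergenic signal as a covariate, 0 without the 3 arrays that stand apart and 0 without the 5 arrays of slide 5. It was 2, with Etfa 1 not called, under always-detected scaling, quantile normalization, the authors' deposited values, no filter on dim probes, slide as a random block, the replicate block and background-marked spots left out, also 2 among always-detected probes, where Etfdh is not tested, and ranged from 0 to 7 when 1 array was left out. The counts of 0 in the late minus early OA effect and in both F tests of the OA effect between times and of serum groups ranged from 0 to 1 when 1 array was left out, and that in serum mice over time from 0 to 2; each higher value came without serum 24 h replicate 2. The cause was not tested. Among always-detected probes Acadl, Acads and Cpt2 2 were not tested either, so the 2 called there are of fewer than 12 probes. Under the slide block the differences were smaller and their SEs larger (Etfdh 1.45, SE 0.50, against 1.78, SE 0.41). Of the other results at 24 h, Hadhb ran from −0.01 in the authors' deposited table to 0.92 with normexp, and Acads, Hadha, Etfa 2 and the dim Cpt2 2 also changed sign between scalings. No called value changed sign. The share of all probes called is not given here for normexp or for every fit that leaves out 1 array. Those member counts are therefore not set against the background of their comparison.

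All probes called at 24 h numbered 10211 (4108 higher, 6103 lower), and with the median of always-detected probes 9499 (1684 higher, 7815 lower), with quantile normalization 7971 (4756 higher, 3215 lower) and from the authors' deposited values 6537 (3565 higher, 2972 lower). They numbered 21717 with no filter on dim probes, 3722 (3359 higher, 363 lower) among always-detected probes, 17451 without serum 24 h replicate 2, 11 with slide as a fixed block, 2 with the covariate, 86 without the 3 arrays that stand apart, 55 without serum 24 h replicate 1 and 11 without slide 5. Scaling to always-detected probes put the median of all probes at −0.24, −0.17, −0.04, 0.45 and −0.66 for 1, 1.5, 3, 4 and 24 h, quantile normalization at 0.00, 0.07, 0.08, −0.15 and 0.20, normexp at −0.25, −0.14, −0.15, 0.08 and −0.30, the authors' deposited values at 0.00, 0.05, 0.04, −0.09 and 0.10, and the 75th percentile at −0.12, 0.04, 0.09, −0.05 and −0.15.

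Replicate numbers do not pair the arrays: of 12 same-numbered pairs 4 had deviations that correlated above 0.1, with a range of −0.521 to 0.394. With the replicate block 2 members were called at 24 h and 7233 of all probes, with Etfa 1 at 1.01 no longer called.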
